A study of Mus musculus with 74 samples.

Results

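Hgf encodes hepatocyte growth factor, a secreted protein that is also called scatter factor and acts through the receptor tyrosine kinase Met. The contacts of its promoter were read from promoter capture Hi-C, in which chromatin is cut with the restriction enzyme HindIII, neighbouring ends are joined, and fragments that hold promoters are enriched. The fragment at chr5:16551190-16554537 (mm10), 3348 bp long, holds the RefSeq start of Hgf. It was chosen because it had many contacts in 1 list and very few in the other two, so its fall is a description and was not tested. It had 66 of 112183 listed contacts in HPC, 1 of 123042 in Ery Luc and 2 of 130734 in Ery shStag2.

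All cells were HPC-7, a mouse haematopoietic progenitor line. The HPC list came from cells that were not transduced and were grown with stem cell factor at 100 ng/ul. The Ery Luc and Ery shStag2 lists came from cells with an inducible hairpin RNA against luciferase (Luc, the control) or Stag2, a subunit of the loop-holding complex cohesin. Their labels give doxycycline for 72 h (73 h for Ery Luc replicate 2), erythropoietin (EPO) at 4 U/l and stem cell factor at 20 ng/ul. HPC cells therefore differ from both others in transduction, doxycycline and the level of stem cell factor as well as in EPO, and these cannot be told apart. Each list pools 2 libraries, so no value below has a replicate or a p-value, and the read depth is unknown. A contact that is not listed scored under 5 or was not seen, and is not shown to be absent. The RNA libraries of the series were not used here, since their transcript identifiers are not paired with gene symbols in the reference tables used. No transcript level of Hgf is given, and the labelled cell types were not checked against marker transcripts.

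HGF is made mostly by stromal and mesenchymal cells as an inactive single chain. Serine proteases such as HGF activator (Hgfac), matriptase (St14) and hepsin (Hpn) cleave it, the Kunitz inhibitors Spint1 and Spint2 hold these proteases back, and the cleaved form binds Met, which signals through adaptors such as Grb2, Shc1 and Gab1. Genes of this kind are often regulated by distant elements in the same chromosomal domain, and a promoter's contacts show which stretches of DNA lie near it in the nucleus.

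RefSeq gives Hgf a start at position 16553495 and a further one 406 bp downstream, both in the captured fragment. The 250 bases before the first start (GRCm38.p6, chr5:16553245-16553494, plus strand) are shown because they lie in the captured fragment, just before the gene. The 250 bases before the start of Gm31113 (chr5:16567088-16567337, minus strand), a long non-coding RNA gene that runs antisense to Hgf, are shown because they lie in a fragment the Hgf promoter contacted in HPC. Both read 5′ to 3′, with each CpG in capitals.
Hgf: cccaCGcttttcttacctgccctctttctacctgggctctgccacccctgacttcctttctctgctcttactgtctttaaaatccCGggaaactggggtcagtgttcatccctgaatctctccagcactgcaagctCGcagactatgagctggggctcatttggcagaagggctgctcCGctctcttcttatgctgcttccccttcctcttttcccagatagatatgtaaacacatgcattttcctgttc
Gm31113: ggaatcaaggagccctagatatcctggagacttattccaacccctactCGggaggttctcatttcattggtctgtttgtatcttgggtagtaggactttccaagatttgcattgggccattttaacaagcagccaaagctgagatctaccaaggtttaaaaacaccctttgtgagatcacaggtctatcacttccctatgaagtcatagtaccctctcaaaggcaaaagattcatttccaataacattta
The Hgf stretch held 4 CpGs at a GC content of 50.8%, and the Gm31113 stretch 1 CpG at 41.6%. Over 32851 RefSeq windows of the same length the medians were 6 CpGs and 52.4%. The promoter of the upstream neighbour Cacna2d1, which encodes an auxiliary subunit of voltage-gated calcium channels, had 36 CpGs and 82.4% GC, and its captured fragment had almost no listed contacts, as given below. The GATA factor word AGATAA was found on neither strand of the printed stretches, and 9.99% of all windows hold it.

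In HPC the Hgf promoter contacted fragments on both sides, all on chromosome 5. There were 26 upstream, up to 246 kb away, and 40 downstream, up to 322 kb away, measured between fragment centres. The nearest lay 8.13 kb off and the median distance was 212 kb. The contacts spanned 569 kb and covered 33.1% of it, in 40 separate runs of touching fragments, 27 of which were a single fragment. By number of contacts the Hgf fragment was the 39th of 14671 fragments in the HPC list, where the median fragment had 4.

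The highest single scores lay far from the promoter on both sides, while the lowest median was over Hgf itself. The score is the authors' own, given for each pair. Where scores of different lists stand side by side below, whether they share a scale is unknown and their difference was not tested. All 10 highest-scoring contacts lay 209 to 310 kb from the promoter, 3 upstream and 7 downstream, with scores of 9.01 to 13.1. The 38 contacts beyond 200 kb had a median score of 6.7, against 6 for the 18 within 100 kb, of which none scored over 7.96.

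The span was divided at gene ends into 5 stretches, and each contact was placed by the centre of its fragment. Upstream, 13 contacts fell in the 3′ part of the Cacna2d1 gene, from 16306592 to 16373810, with a median score of 6.21. They included the 2 highest scores of all, 13.1 at chr5:16307164-16316139 and 12.86 at chr5:16322760-16323850. Between these lay chr5:16316358-16317513, which scored 10. These 3 contacts are 230 to 241 kb from the Hgf promoter.

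Between Cacna2d1 and Hgf, 13 contacts had a median score of 6.43 and a highest score of 7.23, at chr5:16521616-16523068. Centred on the Hgf gene itself there were 8, with scores of 5.11 to 6.32 and a median of 5.57. The fragment with the Gm31113 start was among these, at 6.32.

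Downstream, 11 contacts were centred between the end of Hgf and Gm28710, with a median of 7.16, the highest of the 5 stretches, and a top score of 9.01 at chr5:16759845-16763406. Among them chr5:16616329-16623229, with a score of 7.96, also overlaps the 3′ end of Hgf. The predicted protein-coding gene Gm28710 held 21, the most of any stretch, with a median of 6.63. Its best scores were 10.71 at chr5:16811862-16813341, 10.54 at chr5:16855352-16859346, 10.45 at chr5:16802270-16805086 and 10.44 at chr5:16859347-16860547. Next came 9.36 at chr5:16860646-16865979 and 9.06 at chr5:16792135-16794302. The longest stretch without a listed contact was 55.5 kb, from 71 to 126 kb downstream of the promoter.

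**Figure D1:**
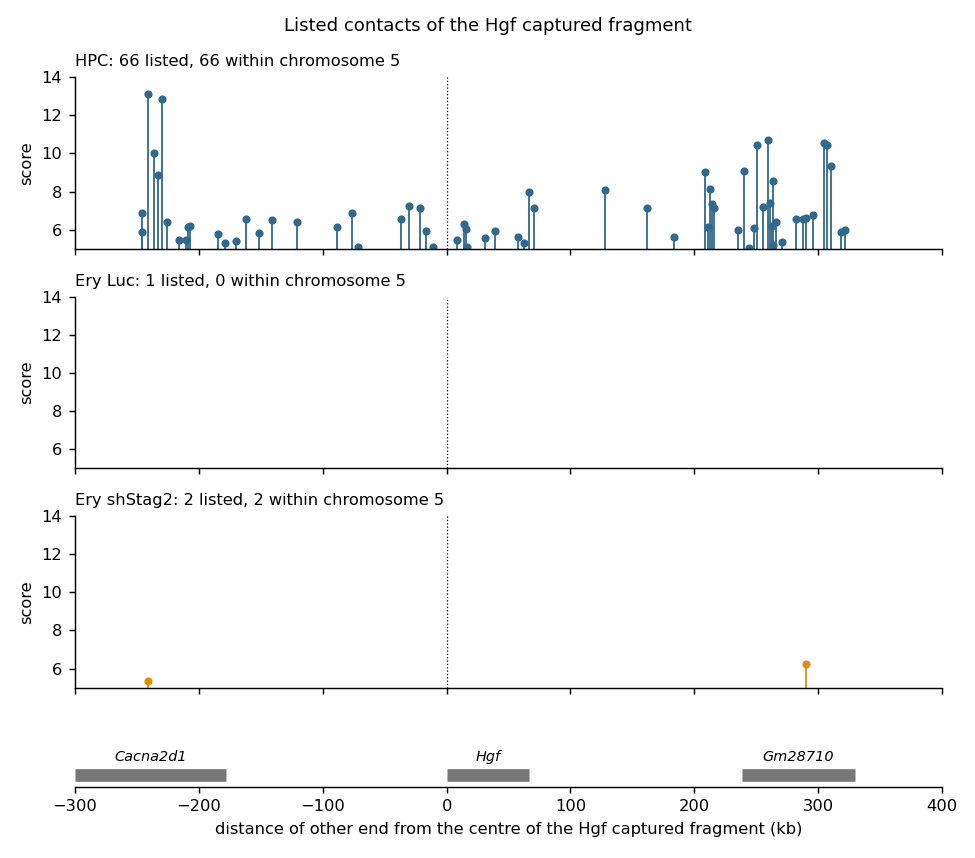
Score of each listed contact of the Hgf fragment (y axis, from the lowest listed score of 5) against its distance from the fragment's centre in kb (x axis), 1 panel per list, with grey bars for genes. The 66 HPC contacts reach 246 kb upstream and 322 kb downstream with all 7 scores of 10 or more beyond 200 kb, and 0 and 2 contacts within chromosome 5 are listed in Ery Luc and Ery shStag2.

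In Ery Luc none of the 66 HPC contacts was listed, which as a count of 0 allows a share of up to 4.55% (3 counts of 66; the exact 95% upper bound is 5.44%). This limit covers counting error only, as touching fragments are not independent and Hgf was chosen for its fall. The only contact was with another chromosome, with a score of 5.16. No contact ended within 10 kb of an HPC other end.

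In Ery shStag2 exactly 2 of the 66 were listed, 3.03% (exact 95% interval 0.369 to 10.5). The contact with chr5:16307164-16316139 in Cacna2d1, the highest-scoring of HPC at 13.1, scored 5.36. The contact with chr5:16841525-16845051 in Gm28710 scored 6.63 in HPC and 6.23 in Ery shStag2. Both thus lay in the upstream and downstream edge regions of the HPC span, 241 and 290 kb from the promoter. Within 10 kb of these 2 other ends lay 11 of the 66 HPC other ends. Ery Luc and Ery shStag2 thus differ by 2 contacts within the chromosome, and whether the Stag2 hairpin had a part in this was not tested.

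Across all captured fragments 45.4% of HPC contacts were listed in Ery Luc and 44.7% in Ery shStag2, and the share grew with the HPC score. For scores of 10 or more it was 86.9% and 85.9%, while Hgf had 0 of 7 and 1 of 7. Contacts of the same scores as those of Hgf would give 28.3 and 27.9 listed at these shares, and 28.4 and 28.2 when distance was matched too. Since Hgf was chosen for this fall, these figures only describe its size. Strong contacts made up 10.6% of the Hgf contacts in HPC and 14.8% of the whole HPC list. Intervals and limits cover counting error only, and neighbouring fragments are not independent.

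**Figure D2:**
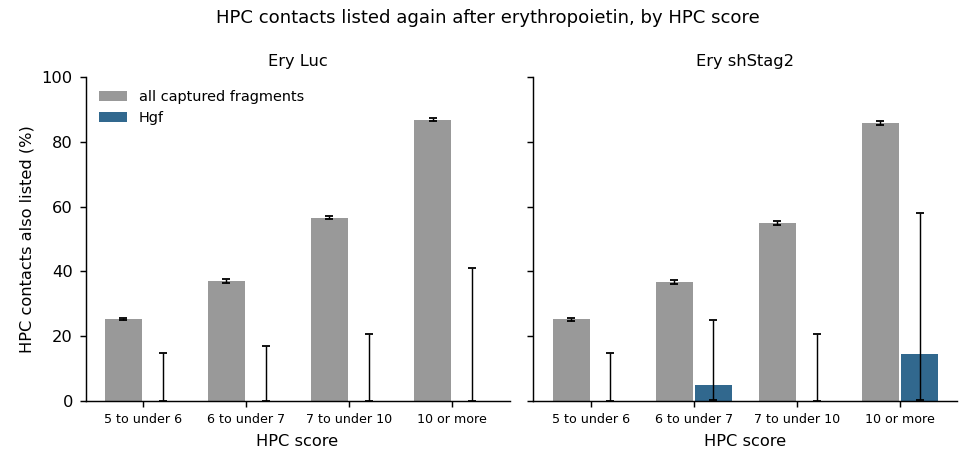
Share of HPC contacts that are also listed in Ery Luc (left) or Ery shStag2 (right), in percent, by HPC score, for all captured fragments (grey) and for Hgf (blue), with exact 95% binomial intervals as bars. The intervals cover counting error only. Grey bars climb from 25.3% to 86.9% (left) and from 25.1% to 85.9% (right), while for Hgf no contact is listed in Ery Luc and 1 each in 2 score ranges in Ery shStag2.

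Hgf was chosen for its fall, so the counts of fragments that fell as far only describe it. Of 532 captured fragments with at least 30 HPC contacts, 5 had at most 10% of that number in Ery Luc, 4 in Ery shStag2 and 3 in both. Hgf itself is included in each of these counts, and the limit of 10% was set after the values were seen. The median fragment of this size had 56.7% and 57.5% of its HPC contacts listed again. The 5 fragments nearest to Hgf over the 3 lists were taken by the Euclidean distance of log2(contacts + 1), among 5722 others with at least 10 contacts in any list. They are given as a description over only 3 points.
The nearest was at Selp, the platelet and endothelial selectin, with 44, 2 and 3 contacts in HPC, Ery Luc and Ery shStag2 (distance 0.92). Slc22a3, an organic cation transporter, had 32, 2 and 2 (1.18). Akap13, a scaffold protein that anchors protein kinase A, had 38, 1 and 5 (1.27). A fragment at Prrt3 had 20, 1 and 2 (1.67), and a fragment within Marchf2, a ubiquitin ligase gene, had 20, 1 and 1 (1.77). In HPC none of the 5 had a contact with another chromosome, and such contacts were only 0.469% of the whole HPC list. Their median distances were 63.8 to 117 kb, all shorter than the 212 kb of Hgf, and none was on chromosome 5.

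**Figure D3:**
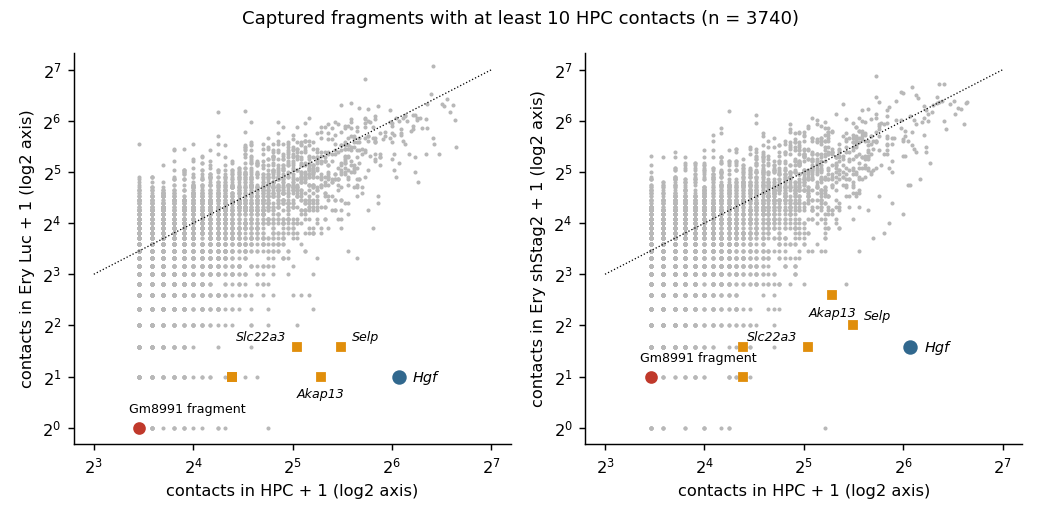
Contacts per captured fragment in HPC (x axis) against Ery Luc (left) and Ery shStag2 (right), both plus 1 on log2 axes, for the 3740 fragments with at least 10 HPC contacts (grey). The dotted line marks equal numbers, orange squares the 5 fragments nearest to Hgf in pattern and the red point a fragment with the pseudogene Gm8991. Hgf, at 66 contacts in HPC, lies far below the dotted line at 1 (left) and 2 (right).

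Contacts of neighbouring captured fragments were not used to choose Hgf. Within 1 Mb of the Hgf fragment 4 others were listed. A fragment was counted as lower or higher when its contacts, plus 1, differed at least 2-fold and by at least 2. Against HPC, 1 of the 4 was lower in Ery Luc and in Ery shStag2, where 10.5% and 9.98% of all captured fragments were. None was higher in Ery Luc and 1 was in Ery shStag2, where 23.8% and 27.4% of all fragments were. Between the Ery lists none of the 4 differed, against 11.2% of all fragments lower and 15% higher in Ery shStag2. With 4 fragments these shares do not set the neighbourhood apart.

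The lower fragment, at chr5:16722893-16735271, is 176 kb downstream of Hgf and holds the pseudogene Gm8991. It had 10 contacts in HPC, 0 in Ery Luc and 1 in Ery shStag2. In HPC 8 of its 10 contacts reached back across Hgf, as far as 422 kb from the Gm8991 fragment. Of them 6 ended on fragments that the Hgf promoter also contacted. Among these was chr5:16307164-16316139 in Cacna2d1, with a score of 6.06. Its highest score, 8.33, was with a fragment 8.2 kb away. The contact listed in Ery shStag2, at chr5:16388899-16392399 with a score of 5.22, was not listed for it in HPC but was an Hgf contact there. Of all fragments with at least 10 HPC contacts 2.09% had at most 10% of that number in Ery Luc, 1.63% in Ery shStag2 and 0.401% in both. These shares include Hgf and the Gm8991 fragment and are not matched for score. The Gm8991 fragment, with 10 contacts in HPC and 1 in Ery shStag2, lies exactly at both limits. The limit of 10% was set after the values were seen. Hgf and this neighbour share other ends and libraries, so they are not independent of each other.

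The higher fragment, at chr5:15840748-15850181, lies 707 kb upstream of Hgf, beyond Cacna2d1, and holds the pseudogene Gm52852. It had 4, 7 and 9 contacts in HPC, Ery Luc and Ery shStag2. In each list 4 of them ended in Gm28710, about 1 Mb away, near the downstream edge of the Hgf span. In HPC and Ery shStag2 some of these ends lay just past that edge. The best of these scored 12.87 in HPC (chr5:16876733-16880465), 12.37 in Ery Luc (chr5:16865980-16867959) and 12.44 in Ery shStag2 (chr5:16867960-16874487). The exact fragments differed between lists, with 0 of the 4 HPC contacts listed in Ery Luc and 3 in Ery shStag2. Contacts across the Hgf span to near its downstream edge were thus listed in all 3 lists from this fragment. These include the lists in which the Hgf promoter had none or 1 there.
In Ery shStag2 the same fragment had 5 further contacts in the 3′ part of Cacna2d1, and 3 of them ended on Hgf other ends of HPC. They included chr5:16306800-16307163 at a score of 7.66 and chr5:16307164-16316139 at 5.01. In Ery Luc it had 2 contacts in Cacna2d1, both farther upstream (chr5:16106115-16111006 and chr5:16201142-16202066), and in HPC none.

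The 2 remaining fragments lie in Cacna2d1. The fragment over its start had 0, 1 and 0 contacts in HPC, Ery Luc and Ery shStag2, and a fragment within the gene 0, 1 and 0. Both contacts were with other chromosomes. Neither fragment had a listed contact within the chromosome in any list. They thus do not show whether the high-scoring Hgf contacts in the 3′ part of this gene were mirrored at its own promoter.

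Farther away, 5 more captured fragments lay within 2 Mb. A fragment between Sema3c, a secreted guidance protein, and Cd36, a fatty acid receptor, had 3, 7 and 6 contacts, and its contacts within the chromosome all ended 370 to 416 kb downstream of Hgf, just past the Hgf span. Its highest scores were 6.34 in HPC, 10.28 in Ery Luc and 20.91 in Ery shStag2. Fragments at Sema3c (0, 1, 0), Cd36 (0, 2, 1), Gnat3 (0, 0, 2) and Gnai1 (1, 0, 0) had at most 2. Of 17 other protein-coding genes with a start within 2 Mb, 5 lay with a start or end on a captured fragment that was listed. The rest, Gm28710 among them, had none listed.

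**Figure D4:**
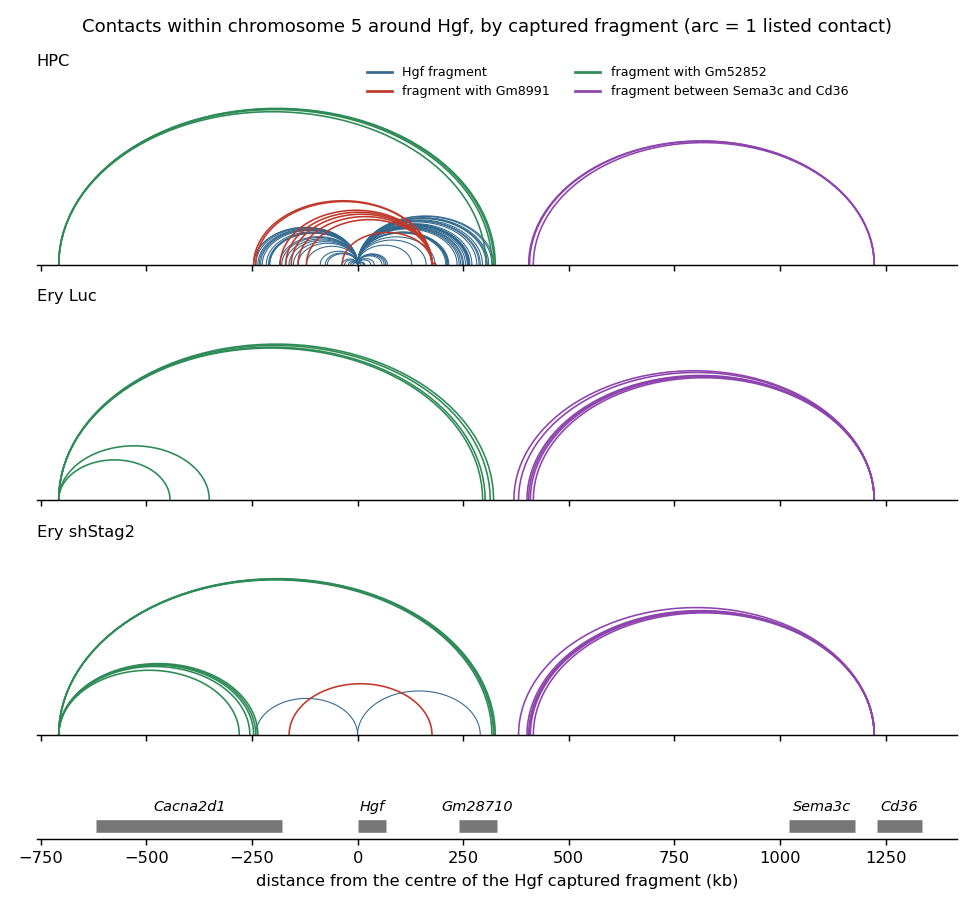
Listed contacts within chromosome 5 around Hgf as arcs from the captured fragment to its other end, by distance from the Hgf fragment in kb, 1 panel per list, arc height without unit. Blue (Hgf) and red (Gm8991) arcs fill the HPC panel and number 0 in Ery Luc and 3 in Ery shStag2. Long green arcs of the Gm52852 fragment, ending near the downstream edge of the Hgf span, are in all 3 panels. So are the purple arcs toward Cd36.

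No other captured fragment contacted the Hgf fragment itself in any list. The 66 HPC other ends of Hgf were contacted from other fragments 8 times in HPC, 3 times in Ery Luc and 7 times in Ery shStag2. Of these contacts the Gm52852 fragment made 2, 2 and 5, and the Gm8991 fragment 6, 0 and 1. Contacts from other chromosomes were counted too. Chromosome 5 as a whole held 4.65%, 5.18% and 4.72% of all listed contacts and 5205, 5637 and 5669 contacts within the chromosome. Contacts between chromosomes made up 0.469%, 7.14% and 7.46% of the lists, and the median distance within chromosomes was 154, 214 and 241 kb.

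Other genes of the HGF pathway were read from a list of 34 chosen from textbook knowledge, 29 of which could be placed on a captured fragment by their start or end. Of 28 listed in HPC or Ery Luc, 11 had at least 2 more contacts in Ery Luc and 8 at least 2 fewer, where 39% and 24.4% of all genes did. In Ery shStag2 against HPC 8 of 29 had more and 11 fewer, against 42.7% and 23% of all genes. In Ery shStag2 against Ery Luc 7 of 28 had more and 12 fewer, against 32% and 25.5%. The median log2 ratio of contacts plus 1 was 0.17, 0.07 and -0.28 in the same order, and 0.3, 0.4 and 0 over all genes. The Ery lists are each compared with the same HPC list, so the counts are not independent.

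Met, the receptor, had 0 contacts in HPC, 2 in Ery Luc and 1 in Ery shStag2. Of genes that process the ligand, Hgfac had 12, 16 and 8, and St14 0, 5 and 3. Plau, the urokinase gene, had 7, 2 and 1, and F12, coagulation factor XII, 25, 19 and 14 over 2 fragments, of which 1 is shared with Pfn3 and Slc34a1. Of the protease inhibitor genes, Spint1 had 8, 2 and 3, fewer in both Ery lists, and Spint2 10, 9 and 5.
At the cell surface, Plaur, the urokinase receptor, had 39, 27 and 19, Sdc1, a heparan sulphate proteoglycan, 20, 10 and 21, and Nrp1, a co-receptor, 1, 3 and 6. Of the adaptors and signal proteins, Grb2 had 6, 7 and 2, Sos1 20, 25 and 21, Shc1 1, 5 and 10 over 2 fragments that other genes share in part, Pik3r1 19, 21 and 30 over 2 fragments, and the ubiquitin ligase Cbl 11, 17 and 15. Mst1, which encodes an HGF-like protein, had 11, 22 and 9, and its receptor Mst1r 22, 19 and 10, both on fragments shared with other genes. The widest range among them was that of Plaur.

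**Figure D5:**
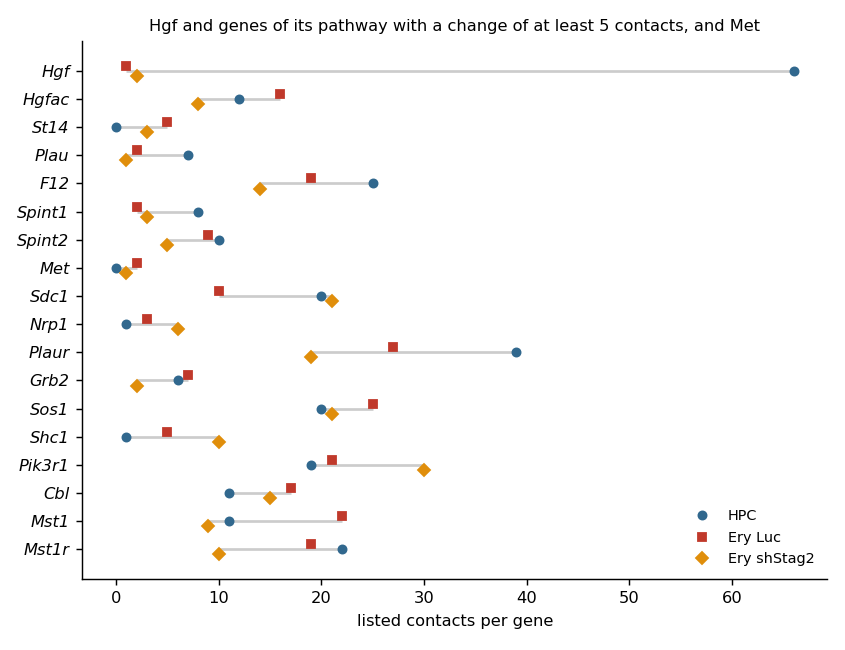
Listed contacts per gene (x axis) in HPC (blue circles), Ery Luc (red squares) and Ery shStag2 (orange diamonds) for Hgf, Met and the pathway genes that differ by at least 5 contacts between any 2 lists, without Hpn. Hgf runs from 66 to 1 and 2, and the next widest range is that of Plaur, 39 to 19.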

How the data were processed

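The authors deposited 3 lists of promoter capture Hi-C contacts, each pooling 2 libraries, as pairs of fragments with a score of 5 or more and no header. Mouse build mm10 is named in the submitters' processing notes. Which software made the score is not stated, nor is the depth of any library, so the precision between libraries is unknown. As a check of build, 1079 of 2569 HindIII sites in RefSeq promoter windows (GRCm38.p6) fell on a listed fragment start, and 0 lay at another offset within 5 bases.

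The Hgf fragment was found as the captured fragment holding the RefSeq gene start. Contacts were counted per captured fragment. A contact was shared when both fragments were identical. A gene was given the captured fragments that hold its start or end. Distances run between fragment centres. Genes and contacts named are the 10 best Hgf contacts and the best of each stretch, every Ery contact, every captured fragment within 1 Mb, the 5 nearest patterns, Met, and pathway genes differing by at least 5 contacts. The best of each stretch, the fragment with the Gm31113 start and fragments between 1 and 2 Mb were named after their values were seen. The members and lists were chosen with earlier results of these data known. The other end of the Ery Luc contact and the values of Hpn are not reported here.

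The counting code was checked on simulated data (Python 3.11.15, pandas 2.3.3, scipy 1.17.1). Alternatives were a score of at least 7 or 10, contacts within chromosomes, merged or nearby other ends, contacts listed from either end, and windows of 500 kb and 2 Mb. Transcript counts and chromatin immunoprecipitation samples, and the sequence of the other ends, which needs a genome, were not analysed here, so the planned test of Hgf transcripts was not run.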

Additional observations from a re-analysis of the deposited data

How the results depend on the processing

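HPC had the most Hgf contacts in every alternative run. Hgf was chosen for its fall from HPC, so this order is a description and adds no independent evidence. Of 66 HPC contacts 23 scored at least 7 and 7 at least 10, and merging touching fragments left 40. Ery Luc had 0 at either score and 0 within the chromosome, and Ery shStag2 had 0 at either score. Of the HPC other ends, 16.7% lay within 10 kb of 1 of the 2 other ends listed in Ery shStag2, and 0% within 10 kb of one in Ery Luc. The count of 1 lower neighbour was the same in windows of 500 kb and 2 Mb and at a score of at least 7, and was not recomputed under the others. With a highest HPC score of 8.33 that fragment has no contact at a score of at least 10, so the call ends there. For higher neighbours, a window of 2 Mb gave 2 in Ery Luc, 2 in Ery shStag2 and 1 between the Ery lists, a window of 500 kb gave 0 in Ery shStag2 against HPC, and a score of at least 7 gave 1 in Ery Luc. At that score other fragments met the Hgf other ends 0, 1 and 3 times in HPC, Ery Luc and Ery shStag2. Pathway genes with more contacts then numbered 4 in Ery Luc and 4 in Ery shStag2 against HPC and 3 between the Ery lists, where 4 had fewer, and within chromosomes 7 had more in Ery Luc. The other 30 of 52 values stayed within 1.5 times or within their interval. Some of these could not have moved. Listing from either end added nothing because no other fragment contacted the Hgf fragment. The only Ery Luc contact was with another chromosome, so it could not lie within 10 kb of an HPC other end. Fewer contacts are counted under a higher score by construction. The alternatives planned for Hgf transcripts and the search of the other ends for motifs were not run. No paired analysis was possible because each condition has 1 pooled list.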

Other observations

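Of 3740 captured fragments with at least 10 HPC contacts, 15 had at most 10% of that number in both Ery lists, a limit set after the values were seen. Of these 15, 6 had another of the set within 1 Mb, in 3 pairs. How many pairs other sets of 15 such fragments would give was not counted, so the pairs are only a description. Hgf and the Gm8991 fragment were 176 kb apart. The second pair, 29.1 kb apart on chromosome 6, was Il17rc, a cytokine receptor gene, with 14, 0 and 1 contacts in HPC, Ery Luc and Ery shStag2, and Prrt3 with 20, 1 and 2. The third, 683 kb apart on chromosome 8, was a fragment in Zdhhc1 with 10, 0 and 1 and a fragment with Pla2g15 and Slc7a6 with 10, 1 and 0. The set also held the fragments at Selp, Slc22a3 and Marchf2 given above. Its remaining members were at Alox12 with 19, 0 and 1, 4930562C15Rik with 18, 0 and 1, and Gm281 with 15, 1 and 0. Further ones were at Gykl1 with 13, 1 and 0, 1110002E22Rik with 13, 1 and 0, and Iho1 with 11, 0 and 0.

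Marker genes of blood and stromal cells were counted by contacts, which are not transcript levels. From HPC to Ery Luc, 7 of 9 erythroid genes had at least 2 more contacts and 1 fewer, 3 of 8 progenitor genes more and 3 fewer, and 1 of 5 mast cell and basophil genes more and 4 fewer. Megakaryocyte genes had more at 1 of 4 and fewer at 3, macrophage and neutrophil genes more at 3 of 6 and fewer at 3. Stromal genes, from cells known to make HGF, had more at 1 of 5 and fewer at 1. Over all genes 39% had more and 24.4% fewer. From HPC to Ery shStag2 the erythroid genes had more at 4 and fewer at 3, progenitor genes 5 and 3, mast cell and basophil genes 1 and 1, megakaryocyte genes 0 and 2, macrophage and neutrophil genes 3 and 3, and stromal genes, 4 of them listed, 3 and 0, against 42.7% and 23% of all genes. From Ery Luc to Ery shStag2 the numbers in the same order were 0 and 7, 5 and 2, 5 and 0, 2 and 2, 3 and 2, and 3 and 0, against 32% and 25.5%.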
